A study of Homo sapiens with 6 samples.

Results

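The genes described here are 34 protein-coding genes of the long arm of chromosome 6, UTRN and its neighbours on both sides in 6q24 to 6q25, out of 58051 genes in the table. They were chosen by measured values: the difference between A2780-ADR and A2780 along the chromosome had been seen before the list was drawn up, and UTRN, which is lower in A2780-ADR, stands among neighbours that are higher. The differences between the lines are therefore given as a description. No p-value is given for any listed gene, and where a listed gene is said to be called, this states only on which side of the thresholds it fell in the fit over all genes and is no independent test. The list spans 8.95 Mb of GRCh38, from the start of VTA1 to the end of MTHFD1L (chr6:142147162-151101887, positions of GENCODE release 29), and 28 of the 34 genes had enough reads to be compared.

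A2780 is an established human ovarian cancer cell line that is sensitive to doxorubicin (adriamycin), an anthracycline that damages DNA, and A2780-ADR is its adriamycin-resistant derivative. RNA-seq was performed on 3 samples of each line, A2780_1 to A2780_3 and A2780-ADR_1 to A2780-ADR_3, all untreated, and doxorubicin is not named in the culture medium of either line. The only comparison in the design is that of the resistant with the sensitive line. A2780-ADR is 1 derivative line, and nothing says whether the 3 samples of a line came from separate cultures, so that the spread between the samples of a line may be technical.

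UTRN encodes utrophin, a large protein related to dystrophin that ties the actin cytoskeleton to the dystroglycan complex in the cell membrane. Its neighbours share a place on the chromosome and not a pathway: among them are LATS1, a kinase of the Hippo pathway, TAB2, an adaptor of the TAK1 kinase, PEX3, which brings membrane proteins into peroxisomes, SF3B5, a subunit of the splicing machinery, and NUP43, a subunit of the nuclear pore. Genes can lie next to one another without sharing a regulator, and the list is therefore read by position first and by role second.

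Values are read counts per gene that the authors normalized with DESeq, and a log2 fold change is that of A2780-ADR against A2780 on log2(normalized count + 1), given with its standard error (SE) from limma over all 6 samples. A gene was compared when its mean over the 6 samples was at least 10 normalized counts, and it was called higher or lower when the Benjamini-Hochberg adjusted p over the 17005 genes compared was under 0.05 and the fold change was above 2. On these terms 13.2% of all genes compared were called higher in A2780-ADR and 14.4% lower.

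Reads in genes numbered between 27775745 and 30513366 per sample, and no pair of samples of a line agreed within sampling noise. ABCB1, the drug efflux pump that marks the resistant line, had 3 reads in the 3 A2780 samples and 87803 in the 3 A2780-ADR samples. Of the epithelial markers, EPCAM had 54.6 ± 4.87 (SD, n = 3) in A2780 and 75.3 ± 16.9 in A2780-ADR, KRT8 went from 79.1 to 9071 and KRT18 from 129.8 to 4072, while CDH1, PAX8, WT1 and MUC16 had at most 48 reads in the 3 samples of either line. PTPRC and PECAM1, markers of blood cells and endothelium, had at most 9 reads. COL1A1 went from 351 to 3030.1 and DCN from 113 to 21.0. What part these marker differences have in the values below was not tested.

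Of the 28 listed genes compared, 17 were called higher in A2780-ADR, 1 was called lower and 10 were not called. Because the same difference chose the genes, nothing is read from the distance of these counts to the shares of all genes. The median log2 fold change of the 28 genes was 1.17, with quartiles of 0.90 and 1.65, against -0.01 over all genes compared. In 26 of the 28 the lowest A2780-ADR sample lay above the highest A2780 sample, an order seen in 36.7% of all genes compared, and in UTRN the order was the opposite. MTHFD1L, the last gene of the list, was the only one in which the samples of the lines overlapped.

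By size, the genes fell into 4 kinds, named after their values were seen. A broad group of 21 genes had log2 fold changes between 0.65 and 1.80, with a median of 1.12, which is a ratio of the means between 1.58 and 3.49. A group of 5, RAB32, ADGB, STXBP5, SAMD5 and UST, was between 12.5 and 1150 times as high in A2780-ADR, with ADGB known only by a lower bound. MTHFD1L was at about the same level in both lines, and UTRN was lower.

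**Figure D1:**
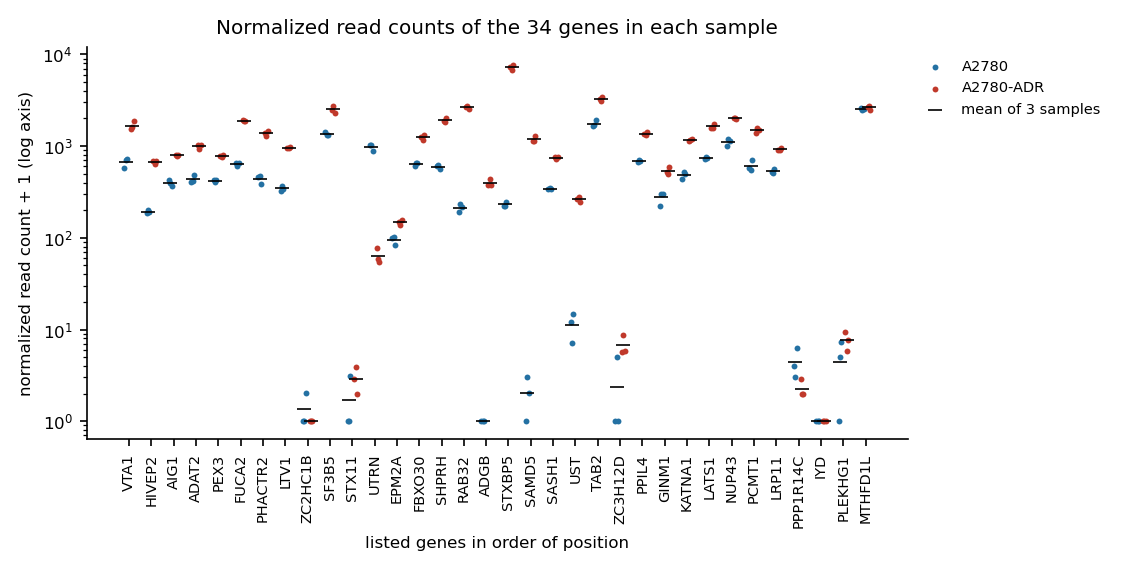
Normalized counts (+1, log axis) of the 34 listed genes in chromosomal order, with 1 point per sample for the 3 A2780 (blue) and 3 A2780-ADR (red) samples and a bar at each mean. Of the 28 genes compared, the A2780-ADR points lie above the A2780 points in 26, below them in UTRN and among them in MTHFD1L, and the 6 genes not compared lie near the bottom.

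UTRN (ENSG00000152818, plus strand, chr6:144285701-144853034) is the longest gene of the list, at 567 kb. It had 1016, 1029.8 and 889.8 normalized counts in A2780_1 to A2780_3 and 76.6, 57.8 and 53.9 in A2780-ADR_1 to A2780-ADR_3. All 3 A2780-ADR samples lay far below the lowest A2780 sample. The means were 979 ± 77.2 (SD, n = 3) in A2780 and 62.8 ± 12.1 in A2780-ADR (n = 3), so that A2780-ADR held 6.41% of the A2780 level, a 15.6-fold difference and a log2 fold change of -3.95 ± 0.13. The 3 A2780 samples gave 2853 reads over its exons and the 3 A2780-ADR samples 197 reads. Per length, the level of UTRN went from 2.27 to 0.149 RPKM (reads per kb of exon, scaled to the reads in genes of the line), and its rank by this level among the 28 genes went from 17 to 28, the last place. Reads of UTRN were present in each A2780-ADR sample, and the spread of UTRN between the A2780-ADR samples, 0.26 as an SD of log2 values, was the widest of the 28 genes in that line. These are bulk samples, in which fewer cells with UTRN RNA and less UTRN RNA per cell cannot be told apart.

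The RefSeq table holds 2 promoters of UTRN, at different starts. They are shown with those of ADGB and STXBP5 to set the gene that was lower beside genes from the group of 5 that were far higher. SAMD5 is not shown. With 0 and 3 reads in the 3 A2780 samples, ADGB and SAMD5 cannot be ranked by the size of their increase. Each run is plus strand, 5′ to 3′, from RefSeq on GRCh38.p14, and covers 250 bases before to 50 bases after an annotated start. Capitals mark matches on either strand to GGGCGG, the core of a GC box, to the CCAAT box and to the TATA box motif TATAAA, which do not overlap one another in these runs.
UTRN, upstream start, chr6:144285085-144285384: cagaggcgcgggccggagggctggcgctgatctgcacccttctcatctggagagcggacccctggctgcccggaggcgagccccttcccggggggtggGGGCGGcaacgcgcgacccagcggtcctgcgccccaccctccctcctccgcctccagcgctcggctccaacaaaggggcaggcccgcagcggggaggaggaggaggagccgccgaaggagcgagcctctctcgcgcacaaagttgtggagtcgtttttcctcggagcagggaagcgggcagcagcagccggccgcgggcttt
UTRN, internal start, chr6:144582898-144583197: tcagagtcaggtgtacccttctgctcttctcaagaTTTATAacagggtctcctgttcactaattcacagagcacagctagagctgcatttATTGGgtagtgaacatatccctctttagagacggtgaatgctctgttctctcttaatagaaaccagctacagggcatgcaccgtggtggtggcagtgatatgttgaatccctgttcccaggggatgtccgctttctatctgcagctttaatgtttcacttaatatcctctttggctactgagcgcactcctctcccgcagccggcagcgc
ADGB, chr6:146598722-146599021: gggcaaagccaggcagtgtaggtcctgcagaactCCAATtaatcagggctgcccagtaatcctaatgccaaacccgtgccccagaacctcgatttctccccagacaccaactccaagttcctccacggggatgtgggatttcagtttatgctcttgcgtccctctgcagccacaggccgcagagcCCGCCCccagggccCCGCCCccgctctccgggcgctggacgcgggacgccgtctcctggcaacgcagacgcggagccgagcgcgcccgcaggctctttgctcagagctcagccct
STXBP5, chr6:147204167-147204466: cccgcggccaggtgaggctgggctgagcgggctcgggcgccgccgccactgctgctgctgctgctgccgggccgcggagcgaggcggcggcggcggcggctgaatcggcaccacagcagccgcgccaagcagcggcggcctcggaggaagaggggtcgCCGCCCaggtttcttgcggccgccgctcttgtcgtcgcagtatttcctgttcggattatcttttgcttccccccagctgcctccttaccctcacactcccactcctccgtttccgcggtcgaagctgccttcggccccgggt

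The upstream UTRN promoter held 30 CpG dinucleotides and a GGGCGG, and the internal one 7 CpG dinucleotides with a CCAAT box and the TATA box motif, each on the minus strand. ADGB had 21 CpG dinucleotides, a CCAAT box and, on the minus strand, GGGCGG, and STXBP5 had 36 CpG dinucleotides and a GGGCGG on the minus strand. In all, 30 of the 34 listed genes matched the RefSeq table, with 49 promoters between them. Some of the 49 overlap, as within MTHFD1L, within PCMT1 and between ADAT2 and PEX3, so that some bases are counted repeatedly below. GGGCGG occurred in 59.2% of these 49 and in 45.0% of the 35116 promoters of the table, the CCAAT box in 28.6% against 34.6%, the TATA box motif in 12.2% against 11.5%, and the cyclic AMP response element, TGACGTCA, in 0 of 49 against 1.85%. The median number of CpG dinucleotides per promoter was 26 in the listed genes and 14 in the table. Which start each read came from is not given by counts per gene, and a match of letters is not evidence of binding.

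The genes before UTRN, from VTA1 to SF3B5, were between 1.86 and 3.49 times as high in A2780-ADR in all 9 that were compared. VTA1, a cofactor of the VPS4 ATPase that takes ESCRT filaments apart, opens the list at chr6:142147162-142224689 with 579.9, 699 and 729 normalized counts in A2780_1 to A2780_3 and 1526, 1606 and 1872 in A2780-ADR_1 to A2780-ADR_3. The lines did not overlap, and the log2 fold change of VTA1 was 1.32 ± 0.10. HIVEP2, a zinc finger transcription factor, had 185, 198 and 190 in the A2780 samples and 683, 631 and 683 in the A2780-ADR samples, a log2 fold change of 1.80 ± 0.08, and this was the highest value in the broad group of 21.

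AIG1, a membrane hydrolase of fatty acid esters, and its neighbours show how near the fold threshold many of these genes lay. AIG1 had 428, 393 and 364 in the A2780 samples and 795, 776 and 799 in the A2780-ADR samples, and its log2 fold change of 1.0003 ± 0.08 put it just inside the threshold of 1, which it missed without A2780 replicate 2 or 3 or A2780-ADR replicate 1 or 3. ADAT2, the catalytic subunit of the deaminase that makes inosine in tRNA, had 402, 419.6 and 477 in the A2780 samples and 1021, 923 and 1039 in the A2780-ADR samples, with a log2 fold change of 1.20 ± 0.08. PEX3 lies 134 bases beyond ADAT2 and had 426, 404 and 423 in the A2780 samples and 769.9, 750.5 and 808 in the A2780-ADR samples, and at 0.89 ± 0.07 it did not reach a 2-fold difference. The samples of the lines did not overlap in any of these genes.

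FUCA2, a fucosidase, PHACTR2, a regulator of protein phosphatase 1 and actin, and LTV1, a factor of 40S ribosomal subunit assembly, were the called genes between PEX3 and UTRN. FUCA2 had 657, 602 and 653 in the A2780 samples and 1920, 1860.3 and 1860.3 in the A2780-ADR samples, a log2 fold change of 1.56 ± 0.06. PHACTR2 went from 440.3 to 1373 (1.64 ± 0.09 in log2 fold change) and LTV1 from 344 to 961 (1.48 ± 0.07). SF3B5, the last compared gene before UTRN and the most abundant per length of the 28 in both lines (66.1 RPKM in A2780 and 126 in A2780-ADR), had 1427, 1321 and 1308 in the A2780 samples and 2492, 2738 and 2296 in the A2780-ADR samples, and its log2 fold change of 0.89 ± 0.07 was not called. From the end of SF3B5 to the start of UTRN is 0.190 Mb. ZC2HC1B and STX11, which flank SF3B5, were too low to compare: ZC2HC1B had 1 read in all A2780 samples and 0 in A2780-ADR, and STX11, a SNARE protein of immune cells, had 2 against 6.

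After UTRN a gap of 0.530 Mb leads to EPM2A, FBXO30 and SHPRH, and here the A2780-ADR samples were again the higher ones. EPM2A, which encodes laforin, the glycogen phosphatase of Lafora disease, had 97.7, 99.8 and 82.3 in the A2780 samples and 149, 136 and 156 in the A2780-ADR samples, and its log2 fold change of 0.65 ± 0.13 was the smallest in the broad group and was not called. FBXO30, a substrate receptor of a ubiquitin ligase, had 601, 646 and 648 in the A2780 samples and 1246, 1177 and 1318 in the A2780-ADR samples (0.98 ± 0.06), just short of the threshold. SHPRH, a ubiquitin ligase that acts on PCNA, had 612, 623 and 556 in the A2780 samples and 1879, 1828 and 2028 in the A2780-ADR samples and was called, with a log2 fold change of 1.68 ± 0.07. The nearest compared neighbours of UTRN, SF3B5 and EPM2A, thus had every A2780-ADR sample above every A2780 sample, and neither passed the 2-fold threshold.

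From RAB32 to SAMD5, a stretch of 1.19 Mb (chr6:146543693-147737547), all 4 listed genes were far higher in A2780-ADR. RAB32, a small GTPase of lysosome-related organelles and mitochondria, had 189, 232 and 216 normalized counts in A2780_1 to A2780_3 and 2700.3, 2742 and 2555 in A2780-ADR_1 to A2780-ADR_3. The A2780-ADR samples were close together and far above the A2780 samples, and the log2 fold change of RAB32 was 3.65 ± 0.08, or 12.5-fold in the means. ADGB encodes androglobin, a globin joined to a calpain-like domain and known from testis and ciliated cells. It had 0 reads in each of the 3 A2780 samples and 378, 434 and 377 normalized counts in A2780-ADR_1 to A2780-ADR_3, which is 1243 reads in all. With a floor of 3 reads over the 3 A2780 samples, ADGB was at least 385-fold higher in A2780-ADR.

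STXBP5, also called tomosyn, binds syntaxin and holds back the assembly of SNARE complexes in exocytosis. It had 224, 222 and 246 normalized counts in A2780_1 to A2780_3 and 7225, 6817 and 7689.6 in A2780-ADR_1 to A2780-ADR_3, the highest counts of any listed gene in A2780-ADR. Every A2780-ADR sample was above every A2780 sample, with a log2 fold change of 4.97 ± 0.06, or 31.4-fold. Per length, STXBP5 rose in rank among the 28 from 23 in A2780 to 3 in A2780-ADR, and RAB32 from 11 to 2. SAMD5, a gene with a SAM domain, had 0, 2.04 and 1.06 normalized counts in A2780_1 to A2780_3 and 1138, 1123 and 1296 in A2780-ADR_1 to A2780-ADR_3. Its 3 reads in A2780 stand against 3716 in A2780-ADR, a ratio of 1150.3 in the means with a 95% counting interval from 393 to 5580 that covers counting error only.

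Beyond SAMD5 the difference in the compared listed genes was again of the broad size, except in UST and, at the end of the list, MTHFD1L. SASH1, a scaffold protein that begins 0.535 Mb after SAMD5, had 342, 346 and 339.9 in the A2780 samples and 764, 717 and 759 in the A2780-ADR samples, a log2 fold change of 1.12 ± 0.07. UST, a sulfotransferase of chondroitin and dermatan sulfate, begins 0.195 Mb after SASH1 and had 11.2, 6.11 and 13.7 in the A2780 samples and 261, 279 and 243 in the A2780-ADR samples. Its A2780 samples were low, with a mean of 10.3, and its A2780-ADR samples lay far above them, with a log2 fold change of 4.59 ± 0.25, or 25.2-fold. TAB2, which begins 0.142 Mb after UST, had 1641, 1678 and 1915 in the A2780 samples and 3269.7, 3083 and 3453 in the A2780-ADR samples and at 0.91 ± 0.07 was not called. The far higher genes were thus not a single unbroken stretch, since SASH1, called at the size of the broad group, lies between SAMD5 and UST.

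**Figure D2:**
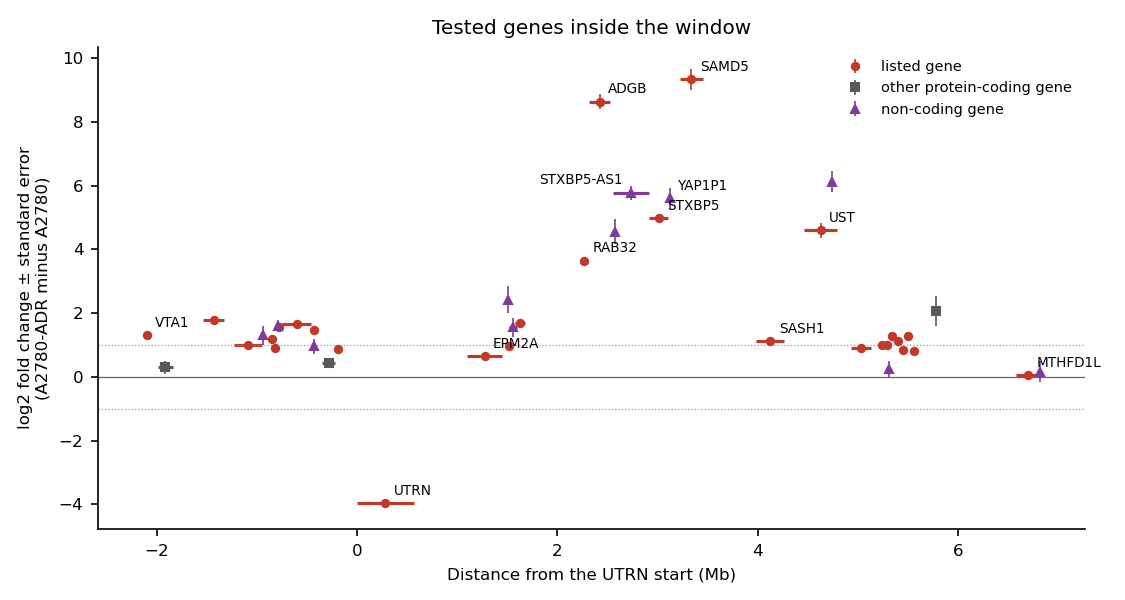
Log2 fold change (A2780-ADR minus A2780, points, with SE as vertical bars) of the genes compared inside the window against distance from the UTRN start in Mb, horizontal bars giving gene length, circles the listed genes, squares 3 other protein-coding genes and triangles 11 non-coding genes, with dotted lines at 2-fold. UTRN is the only point below the lower line, and the points from RAB32 to SAMD5 and at UST stand above the rest. The plotted heights of genes with 0 reads in A2780, ADGB among them, depend on the added count of 1.

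The last dense cluster of the list, from PPIL4 to LRP11, held 7 compared genes that lie within 0.359 Mb, and all 7 were between 1.75 and 2.43 times as high in A2780-ADR. PPIL4, a cyclophilin of the splicing machinery, had 671, 707 and 690.3 in the A2780 samples and 1354, 1314 and 1432 in the A2780-ADR samples. GINM1, a membrane glycoprotein, had 219, 301 and 303 in the A2780 samples and 523, 501 and 597 in the A2780-ADR samples. With log2 fold changes of 0.99 and 0.99, PPIL4 and GINM1 lay just outside the threshold of 1, as did FBXO30 at 0.98.

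KATNA1, the catalytic subunit of the microtubule-severing enzyme katanin, was called, with 483 ± 38.3 (SD, n = 3) in A2780 and 1169 ± 20.2 in A2780-ADR (1.28 ± 0.07 in log2 fold change). LATS1, the Hippo kinase that phosphorylates YAP1, had 722, 764 and 742 in the A2780 samples and 1593, 1570.3 and 1754 in the A2780-ADR samples and was called at 1.14 ± 0.06. PCMT1, which repairs damaged aspartate residues in proteins, was called at 1.29 ± 0.09. NUP43 had 1117 ± 95.6 (SD, n = 3) in A2780 and 2001 ± 13.6 in A2780-ADR, and LRP11, a receptor of the LDL receptor family, 531 ± 23.4 (SD, n = 3) in A2780 and 929 ± 26.9 in A2780-ADR. The log2 fold changes of 0.84 ± 0.06 for NUP43 and 0.81 ± 0.06 for LRP11 were below the threshold, although the lines did not overlap in either. NUP43 and PCMT1 share 223 bases on opposite strands, and no source used here gives the strand setting of the counting.

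The remaining listed genes, 1 between TAB2 and PPIL4 and 3 between LRP11 and MTHFD1L, had few or no reads in either line and were not compared. ZC3H12D, a zinc finger protein of the RNase-like ZC3H12 family, had 4 reads in all A2780 samples and 18 in A2780-ADR. PPP1R14C, an inhibitor of protein phosphatase 1, had 10 against 4 reads, and PLEKHG1, a guanine nucleotide exchange factor, 10 against 21. IYD, the iodotyrosine deiodinase of the thyroid, had 0 reads in all 6 samples, which allows up to 3 reads over the 3 samples of a line.

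MTHFD1L, the mitochondrial enzyme that releases formate from formyl-tetrahydrofolate, had 2598, 2504 and 2557 normalized counts in A2780_1 to A2780_3 and 2654, 2764 and 2500.3 in A2780-ADR_1 to A2780-ADR_3. The samples of the lines were interleaved, with means of 2553 ± 47.4 (SD, n = 3) in A2780 and 2639 ± 132 in A2780-ADR and a log2 fold change of 0.05 ± 0.05. It begins 0.796 Mb after ULBP3, the last called protein-coding gene before it, and no listed gene after PCMT1 was called.

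The place of the listed genes on the chromosome was read from the 658 protein-coding genes of chromosome 6 that were compared. Going along the chromosome, a gene counted towards the change when its log2 fold change was at least 0.5, and the change was taken to end where 2 genes in a row did not reach it. The stretch so found ran over 56 genes and 17.3 Mb, from SLC18B1 (start at 132769370), a vesicular polyamine transporter, to ULBP3 (end at 150069095), a ligand of the NKG2D receptor. It held 27 of the 28 compared listed genes and, on this rule, began 9.38 Mb before VTA1. In all, 35 of the 56 were called higher and 2 lower, UTRN and CITED2, a transcriptional cofactor and the nearest compared gene before VTA1, which went from 58.7 to 18.8 normalized counts (-1.59 ± 0.20 in log2 fold change). The other 5 that fell short of 0.5 were MTFR2 at -0.72, ARFGEF3 at -0.08, GVQW2 at 0.06, ADGRG6 at 0.31 and PLAGL1 at 0.44. Of those called higher, TCF21, ADGB, SAMD5, PERP, SGK1 and ULBP3 had A2780 means of 0, 0, 1.03, 2.39, 7.24 and 7.83. They reached the minimum mean of 10 only through A2780-ADR, so the filter fixed their direction in advance. ULBP3, the right edge of the stretch, is thus such a gene.

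The edges of this stretch depended on how it was read. On its left the nearest genes were STX7 at 0.34 and MOXD1 at -0.08, and on its right MTHFD1L at 0.05 and AKAP12 at -1.55. With a size of at least 0.3, or with gaps of 2 genes allowed, it began at CENPW (start at 126340174) and held 70 genes, and with a minimum mean of 50 it ran over 58 genes from CENPW to LRP11. With a size of at least 1 it held 13 genes, from REPS1 to LTV1, with no gap allowed 18, from EPM2A to ULBP3, and with every gene above 0 included 26, from SF3B5 to ULBP2. In the last 2 of these readings the stretch began within the list.

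AKAP12, a scaffold of protein kinase A, lies just past the list and was called lower, with 1190.3, 1149.9 and 1006 in the A2780 samples and 363, 411 and 362 in the A2780-ADR samples, and ZBTB2 after it had a log2 fold change of 0.14. After these the values turned positive again: RMND1 had 0.85 and ARMT1 1.22. Of the 55 genes compared from MTHFD1L to PDCD2 near the end of the chromosome, 51 had positive log2 fold changes, 28 were called higher and 2 lower, with a median of 1.02. Among those called higher, VIP, CLDN20 and RGS17 had A2780 means of 0, 4.46 and 5.84 and reached the minimum mean only through A2780-ADR. The 547 genes before the stretch had a median of 0.07, with 64 called higher and 63 lower. The listed genes thus lay within a longer region of higher genes, which reached the end of the chromosome with an interruption at MTHFD1L, AKAP12 and ZBTB2.

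Fixed windows of 10 Mb on each side held higher genes at shares near that of the list. Within 10 Mb before VTA1, 17 of 28 compared protein-coding genes were called higher and 1 lower, with a median log2 fold change of 1.34. Within 10 Mb after MTHFD1L, 18 of 33 were called higher and 1 lower, with a median of 1.09. In bins of 10 Mb the median was between -0.34 and 0.23 in each bin up to 100 Mb, 0.33 and 0.28 in the next 2 bins, 0.64 from 120 to 130 Mb and 1.34 from 130 to 140 Mb. It was 1.14 in the bin from 140 to 150 Mb, which holds most listed genes, and 1.10, 0.85 and 1.19 in the bins after it. The border of the list was set on values of this contrast, so these flanks are a description as well. Their higher counts include TCF21, PERP and SGK1 before the list and VIP, CLDN20 and RGS17 after it. As said above, these passed the filter only through A2780-ADR.

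**Figure D3:**
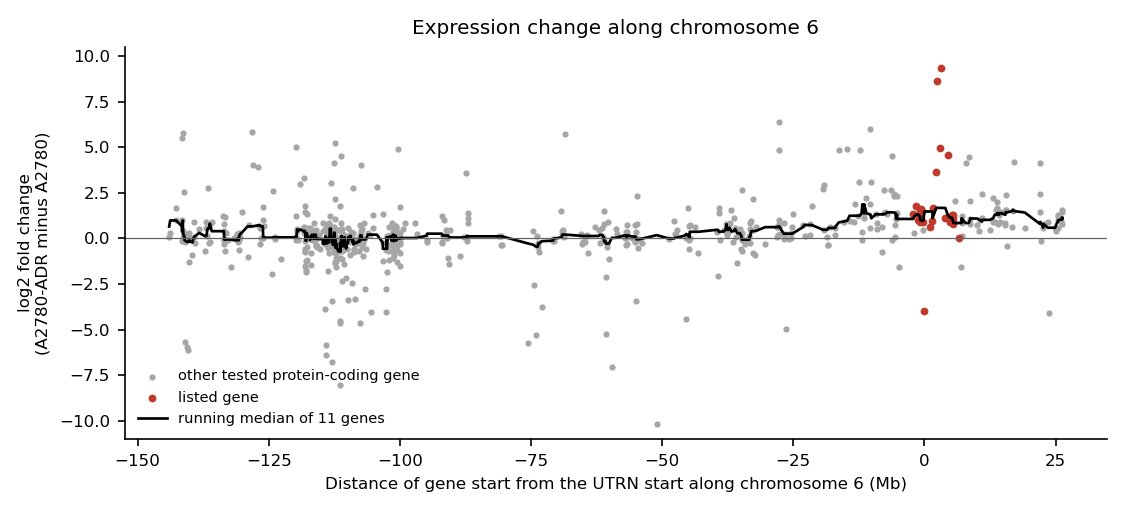
Log2 fold change (A2780-ADR minus A2780) of each of the 658 protein-coding genes compared on chromosome 6 against the distance of its start from that of UTRN in Mb, with the listed genes in red and a running median of 11 genes as a line. The line lies near 0 over most of the chromosome and near 1 on both sides of UTRN up to the right end.

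Genes inside the window that are not on the list were mostly too low to compare. Of 12 such protein-coding genes, 3 were compared. ADGRG6, an adhesion receptor of Schwann cells, had 40.7, 42.8 and 62.3 in the A2780 samples and 61.5, 51.1 and 66.4 in the A2780-ADR samples (0.31 ± 0.20 in log2 fold change), and the lines overlapped. PLAGL1, an imprinted zinc finger gene, had 757, 699 and 679.8 in the A2780 samples and 951, 979.7 and 964 in the A2780-ADR samples (0.44 ± 0.06). ULBP3 was called higher, with 14.2, 7.13 and 2.11 in the A2780 samples and 26.5, 32.8 and 29.8 in the A2780-ADR samples (2.07 ± 0.47). Its neighbours RAET1G and ULBP2, also NKG2D ligands, had 0 reads in A2780 and 40 and 35 in A2780-ADR.

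Of 100 non-coding genes inside the window 11 were compared, and 8 were called higher and 0 lower by limma, with a median log2 fold change of 1.60, where 14.8% of all compared non-coding genes were called higher. At an unadjusted p under 0.05 none of the 11 was lower either, and edgeR and DESeq2 called 8 higher and 0 lower. In A2780, YAP1P1, AL138916.1 and AL357992.1 had means of 0, STXBP5-AS1 2.75, AL023806.3 3.41 and AL136116.3 9.65. These called genes reached the minimum mean of 10 only through A2780-ADR, so the filter fixed their direction in advance. The window was also set on values of this contrast, and nothing is read from these counts. The 3 that lie between RAB32 and SAMD5 were all called. STXBP5-AS1, which shares 190 bases with STXBP5 on the opposite strand, had 3.05, 2.04 and 3.17 in the A2780 samples and 199, 221 and 188 in the A2780-ADR samples, or 8 reads against 634. YAP1P1, a pseudogene of YAP1, had 0 reads in A2780 and 149 in A2780-ADR, at least 46.1-fold higher, while its parent YAP1 went from 4239 to 3372 normalized counts. AL138916.1 had 0 against 72 reads, at least 22.3-fold higher. AL357992.1, which lies inside UST on the opposite strand, had 0 against 219 reads, at least 67.8-fold higher, and reads of it and of UST can be told apart only where the counting used the strand. The same limit holds for VDAC1P8 in FUCA2, AL356599.1 in FBXO30 and SHPRH, AL049844.2 in LTV1 and RPS18P9 in KATNA1. Each of these compared non-coding genes overlaps the listed gene on the opposite strand.

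The samples of each line were close to one another in the listed genes. The median SD of log2 values was 0.10 in A2780 and 0.08 in A2780-ADR, against 0.10 and 0.10 over all genes compared, and the widest was 0.81 for SAMD5 in A2780, where it rests on 3 reads. A2780_1 was the lowest of its line in 14 of the 28 genes, A2780-ADR_3 the highest in 18 and A2780-ADR_2 the lowest in 16. These orders within a line were small beside the differences between the lines. Across the 28 genes, those with a lower level per kb in A2780 tended to have the larger log2 fold change (Spearman's correlation of -0.52, across genes, which share samples and are not replicates, and with the A2780 level on both sides of the relation).

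The other members of the complexes and pathways in which the listed genes act were looked up outside the window, in 14 lists of 178 genes, of which 165 were compared. Over all lists 20 genes, or 12.1%, were called higher and 14, or 8.48%, lower, beside 13.2% and 14.4% of all genes compared, with a median log2 fold change of 0.05. For the 154 on other chromosomes the shares were 11.04% and 9.09% and the median 0.04. Among those called higher, SGCE and MYD88, with A2780 means of 3.79 and 9.98, reached the minimum mean only through A2780-ADR. The shares of all genes, 13.2% and 14.4%, are also the ones to set beside each list below. Each list held 4 to 21 compared genes, and nothing about a pathway is read from its counts. The partners on 6q itself that were called were CCN2 (from 17.2 to 507, log2 fold change 4.84 ± 0.21), TNFAIP3 (2.64) and PEX7 (1.43). TNFAIP3 and PEX7 lie within the stretch of changed genes, and CCN2 within its readings that begin at CENPW. No p-value is given for them, because the difference along this region was seen beforehand.

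UTRN's own partners, the dystrophin-glycoprotein complex and the enzymes that glycosylate dystroglycan, had 4 genes called higher and 2 lower of 17 compared. The shares of all genes compared were 13.2% and 14.4%. DMD, which encodes dystrophin, the relative of utrophin, was lower, with 22419, 22430 and 21006 in the A2780 samples and 4460.5, 4605 and 4978 in the A2780-ADR samples (log2 fold change -2.23 ± 0.05, adjusted p = 3.98e-12 by limma). POMT2, an O-mannosyltransferase, was lower at -1.74 ± 0.06. DTNA, a dystrobrevin, was higher, from 93.5 to 2033 (4.44 ± 0.11), as were SGCA (from 86.8 to 1399.7) and SGCE at 3.29 ± 0.42. DTNB, the other dystrobrevin of the list, went from 652 to 1208 (0.89 ± 0.06) and was not called. The median of the list was 0.20, and the called genes thus went in both directions.

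In the lists of SF3B5, NUP43, ADAT2 and the phosphatase regulators no gene was called. Of 9 SF3b genes (SF3B5) limma, edgeR and DESeq2 each called 0, while 2 were higher and 2 lower at an unadjusted p under 0.05 in limma, and the median log2 fold change was 0.03. Of 9 Y complex genes of the nuclear pore (NUP43) the 3 tools likewise called 0, with 3 higher and 4 lower at the unadjusted p and a median of -0.06. The 4 tRNA deaminase genes (ADAT2) and the 8 genes of myosin phosphatase and the PP1 inhibitors (PHACTR2, PPP1R14C) also had 0 calls by the 3 tools, with 3 and 6 genes under the unadjusted p. In the list of 40S maturation (LTV1) 1 of 13 was called, PNO1, which was higher at 1.14 ± 0.08 in log2 fold change. Of 7 severing enzymes (KATNA1) 1 was called higher, FIGN at 1.14 ± 0.07 (adjusted p = 1.95e-08 by limma), and 1 was called lower, where KATNA1 itself had 1.28.

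In the Hippo list (LATS1) 2 of 21 genes were called higher and 2 lower, beside 13.2% and 14.4% of all genes compared. The higher ones were CCN2, which lies on 6q, and CCN1 (1.57 ± 0.09), and the lower ones AMOT at -2.79 ± 0.22 and AMOTL1 at -2.48 ± 0.11. The rest were not called, YAP1 at -0.33 and AMOTL2 at -0.42 among them, and the median of the list was 0.10. At an unadjusted p under 0.05 in limma 10 of the 21 were higher and 8 lower. The activity of the pathway was not tested. In the TAK1 list (TAB2) 3 of 17 were called higher by limma, TNFAIP3, IRAK4 at 2.49 ± 0.13 and MYD88 at 1.20 ± 0.32, which lost its call without A2780 replicate 2 or A2780-ADR replicate 2. None was called lower by limma, edgeR or DESeq2, and 5 were lower at an unadjusted p under 0.05. Peroxisome genes (PEX3) went in both directions, with PEX7 higher at 1.43 ± 0.13, and PEX14 lower at -1.80 ± 0.06 and PEX5 at -1.39 ± 0.06. The same held for ESCRT-III and VPS4 (VTA1), with CHMP4C at 1.70 ± 0.06, CHMP3 at 1.12 ± 0.05, VPS4B at -1.46 ± 0.06 and CHMP1B at -1.07 ± 0.06.

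Among 14 SNARE partners compared (STXBP5, STX11), 4 were higher and 1 lower, beside 13.2% and 14.4% of all genes compared. VAMP8, a SNARE of regulated secretion, rose from 196 to 2646 (3.75 ± 0.06, adjusted p = 3.33e-13 by limma), STXBP4 and STXBP3 were higher at 1.79 ± 0.08 and 1.68 ± 0.07, STXBP2 at 1.13 ± 0.11, and STXBP6, a small relative of tomosyn, fell from 219 to 7.34 (-4.72 ± 0.18). Of the mitochondrial one-carbon enzymes (MTHFD1L), 3 of 9 were called lower and 0 higher by limma, edgeR and DESeq2, and 3 were higher at an unadjusted p under 0.05. With 9 genes, these counts are not read against the shares of all genes. ALDH1L2 had 7226, 7304 and 7277 in the A2780 samples and 934, 764 and 956 in the A2780-ADR samples (-3.04 ± 0.07), and GLDC at -1.47 ± 0.05 and SHMT2 at -1.28 ± 0.05 were lower as well, beside MTHFD1L at 0.05. In the glycogen list (EPM2A) PPP1R3C was lower at -1.98 ± 0.10 and GYG1 higher at 1.11 ± 0.10, of 9 compared, and GYG1 lost its call without A2780 replicate 1.

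**Figure D4:**
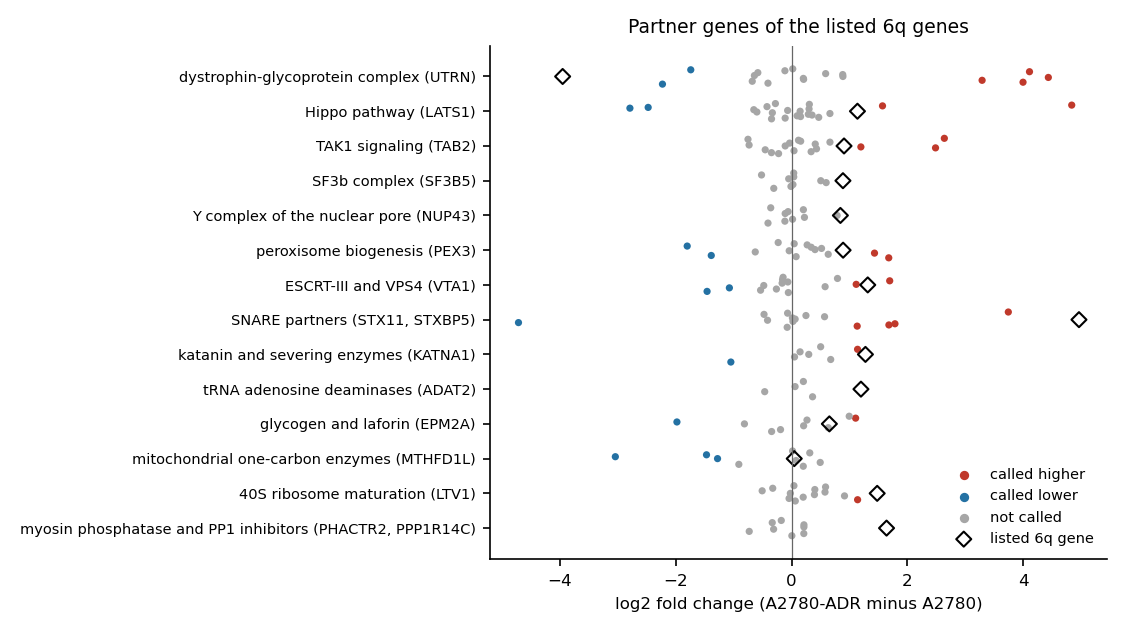
Log2 fold change (A2780-ADR minus A2780) of each compared gene in the 14 partner lists as points, red where called higher, blue where called lower and grey where not called, with the listed gene of each list as a diamond. The medians of the lists lie between -0.15 and 0.30, the diamonds of UTRN and MTHFD1L lie at -3.95 and 0.05, and the others lie between 0.65 and 4.97.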

How the data were processed

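RNA-seq libraries (TruSeq stranded mRNA) were made from 3 samples each of untreated A2780 and A2780-ADR, and the authors normalized the reads per gene with DESeq. These normalized counts are the signal values the authors deposited. STAR, HTSeq, DESeq and GRCh38 are named in the submitters' processing notes; for versions, strand setting and annotation release, the sources used here give nothing. In every sample 100% of the values lay within 0.01 of a whole number of reads, so that reads per gene could be recovered (27775745 to 30513366 in all per sample). Intervals and floors cover counting error only. There were 0 value columns without a sample.

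The 17005 genes whose mean over the 6 samples reached 10 normalized counts were compared with limma 3.58.1 in R 4.3.3 on log2(normalized count + 1), with a variance trend and Benjamini-Hochberg adjustment over these genes. Genes under an adjusted p of 0.05 were called where they also differed by more than 2-fold. The authors used a negative binomial test; limma was the main test here because the deposited values are normalized, and count tests on the recovered reads were alternatives. Names and positions came from GENCODE release 29, which matched 57447 of 58051 identifiers, and promoters from RefSeq (GRCh38.p14). Other steps used Python 3.11.15, numpy 2.4.6, pandas 2.3.3, scipy 1.17.1 and matplotlib 3.10.9, and the comparison was tested on simulated data.

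The listed genes, the partner lists and the tests were chosen with earlier results of these data known. The genes named are the listed genes, the other compared protein-coding genes inside the window, the 2 on each side of the stretch of changed genes and up to 3 per direction among the called genes of each partner list. Other names at edges and interruptions of the stretch, the non-coding genes and the low genes in the window were chosen after their values were seen. Of 178 partner genes, 177 were found. Some genes that this rule would name are not reported here. As alternatives, the pseudocount was set to 0.5 or 5 and the minimum mean to 0 or 50; values were rescaled to equal totals or by TMM; edgeR 4.0.16 (quasi-likelihood) or DESeq2 1.42.0 was run on recovered reads; the replicate number was added as a block; single samples were left out; the fold threshold was dropped; and the rule for the stretch was varied. No source used here says whether equal replicate numbers pair the lines. Samples with equal numbers had correlations of their deviations of 0.004, -0.016 and 0.077, which cannot exclude a shared preparation.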

Additional observations from a re-analysis of the deposited data

How the results depend on the processing

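The count of listed genes called higher was 17, stayed between 16 and 20 in every alternative that kept the fold threshold, and was 26 without that threshold, while the 1 lower gene, UTRN, was called throughout. The median log2 fold change of the listed genes ranged from 1.13 to 1.21. Leaving out 1 sample at a time gave 16 to 20 higher genes. With the replicate block 17 were higher and the stretch held 56 genes, and the block changed no other count beyond 1.5 times. Nothing but the equal numbers is known to link A2780 and A2780-ADR replicates. The stretch held 26 genes with no filter, 13 at a size of at least 1 and 18 with no gaps. Without the fold threshold 30 genes of the right flank were higher (main value 18), 2 lower in each flank (1), 2 other protein-coding genes inside were higher (1), and of the partner genes 72 were higher (20) and 55 lower (14). With no filter, 2 genes of the right flank were lower, 4 other protein-coding genes inside were higher and 1 lower, and 16 non-coding genes were higher (8). With a mean of at least 50, 0 genes of the left flank were lower, 0 other protein-coding genes inside were higher and 2 non-coding genes were higher. In these alternatives fewer or more genes were tested or passed by construction. Of 970 values of single genes, 948 stayed on the same side of the threshold and none changed direction. The others were AIG1 (0.943 to 0.998 where it was lost), FBXO30, PPIL4 and GINM1 (1.001 to 1.066 where they were gained), GYG1 (0.99 without A2780 replicate 1) and MYD88 (0.960 to 0.996 where it was lost). Among these, AIG1 was lost with a pseudocount of 5 and without A2780 replicate 2, A2780 replicate 3, A2780-ADR replicate 1 or A2780-ADR replicate 3. Depth limits the 6 listed genes that were not compared and the ratios of ADGB and SAMD5, which rest on 0 and 3 reads in A2780.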
